A study of Saccharomyces cerevisiae with 3 samples.

Results

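The genes described here encode the proteins of the small subunit of the cytosolic ribosome in budding yeast, Saccharomyces cerevisiae. They were taken by name: every gene whose symbol in the array annotation is RPS, a number and, where the gene is duplicated, the letter A or B. This gave 54 genes of the 5539 named genes on the array, of which 48 are described here, each with 2 spots, or 96 spots in all. They encode 28 different proteins. RPS14A, the partner of RPS14B, had no named spot and was not analysed here. The rule reads gene names and no measured value, although it was set with earlier results of these data known.

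On each of 3 two-colour arrays, total RNA of wild-type cells exposed for 1 h to 0.2 mM arsenite, As(III), was hybridised together with RNA of untreated wild-type cells. The dye on the treated RNA was Cy5 for replicates 1 and 2 and was exchanged for Cy3 in replicate 3. The sources used here give neither the strain background nor the mating type. Nothing in them ties the arrays to different cultures, so p-values measure only the spread between these arrays, which may be technical. In the tests below that spread is largely pooled over genes or pairs. The deposited values are log ratios of the 2 channels, and the table holds no intensities.

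The cytosolic ribosome joins a small 40S subunit, which binds mRNA and reads its codons, to a large 60S subunit, which makes peptide bonds. Its proteins are made in large amounts in growing yeast from genes that are mostly duplicated, and transcription of these genes is tied to growth through Rap1, Fhl1, Ifh1 and Sfp1 downstream of the TORC1 and protein kinase A pathways. Lowered expression of the whole set is a known part of the response of yeast to many stresses. The 2 copies of a pair encode the same protein or a nearly identical one. How far the spots of such copies share hybridisation is not described in the files and was not tested.

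Values below are log2 ratios of treated over untreated cells after each array was centred on its median over named genes, so they are relative to the middle gene of the array. The medians removed were -0.10, 0.52 and -0.14 for replicates 1, 2 and 3, after replicate 3 had been multiplied by -1 for its exchanged dyes. As deposited, replicate 3 ran opposite to the other arrays over all spots (Pearson's r = -0.782 with replicate 1 and -0.613 with replicate 2), and replicates 1 and 2 ran together (r = 0.784). The direction takes the ratio as Cy5 over Cy3, which is likely but not stated. With the opposite convention every sign, share of the untreated level and rank below would turn, so that genes given as lower would be higher by the same fold. The base of the logarithm is not stated either and was read as 2. Read as a natural logarithm, every value would be 1.44 times as large, and no call would change.

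Transcripts of the small-subunit proteins fell almost without exception. Of the 48 genes, 46 fell, 1 rose and 1 did not pass the test (limma, threshold 0.05 for the p-value adjusted over all genes), beside 18.1% of all genes that fell and 14.5% that rose. The median of the 48 means was -1.97, which is 25.6% of the untreated level in this direction, beside 0.0051 over all genes. The share of all genes that fell was 10.9% without replicate 1 and also without centring, while 46 of the 48 fell in both. The means of 42 genes lay 1.5 to 2.5 below 0. At least 2-fold lower were 45 and at least 4-fold lower 18, beside 462 and 58 of all 5539 genes. All but RPS19A and RPS30A were below 0 on every array, as were 29.7% of all genes. Below -1 on every array were 43, as were 5.11% of all genes. Of the 100 genes with the lowest means on the array, 32 were among these 48.

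**Figure D1:**
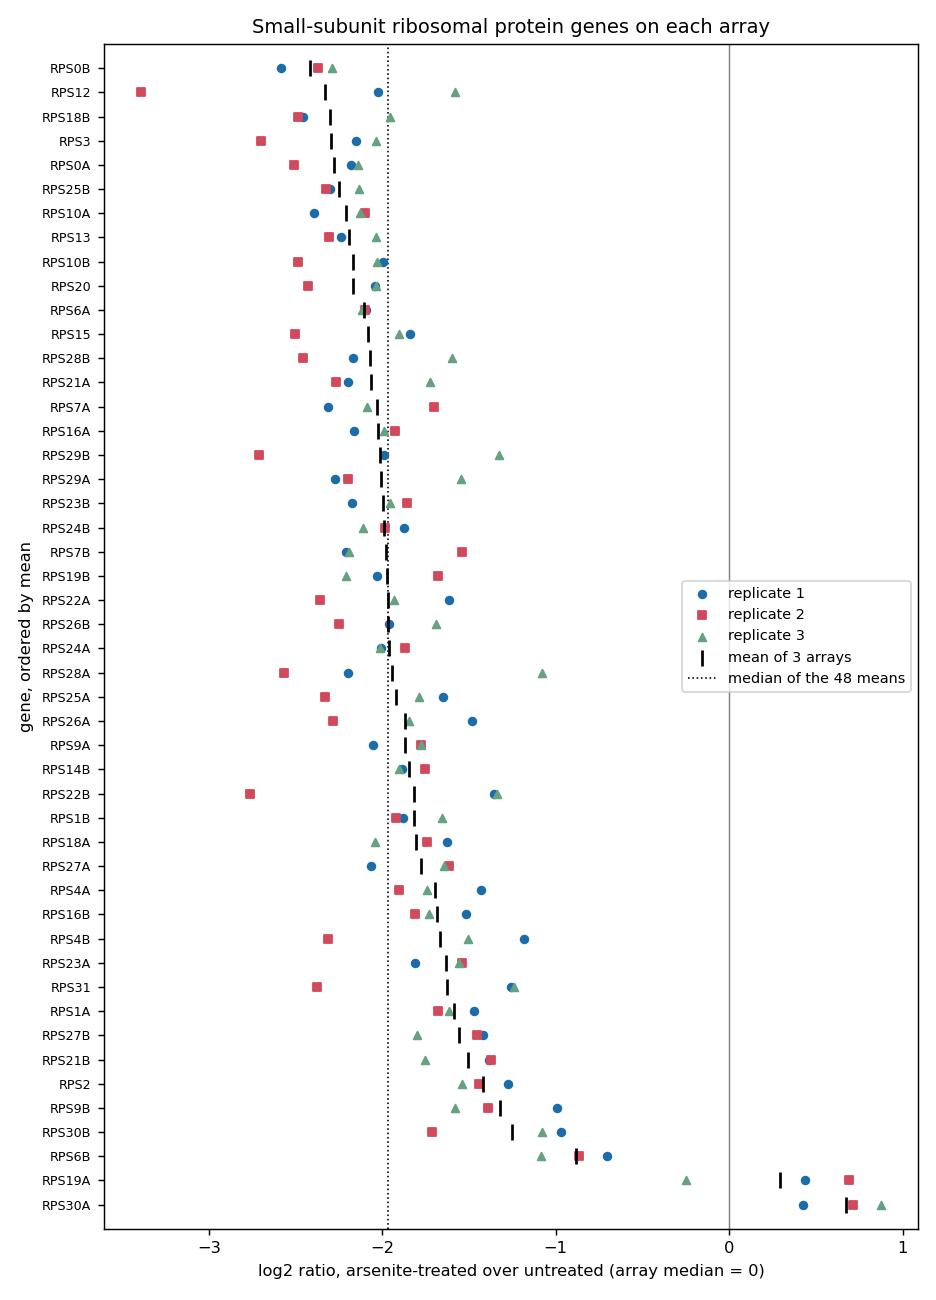
Log2 ratio of treated over untreated cells for each of the 48 small-subunit genes on each array (x axis, array median set to 0), with genes ordered by their mean (y axis). Coloured points are the 3 arrays, black ticks the means, and the dotted line the median of the means (-1.97). RPS19A and RPS30A stand at the right, apart from the other 46 genes.

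The large-subunit genes, named RPL in the same way, fell as well. Of 73 measured, 70 fell, 0 rose and 3 did not pass, with a median of -1.77 and a range from -2.51 to 0.43. The small-subunit medians on replicates 1, 2 and 3 were -1.98, -2.04 and -1.78, and those of the large subunit were -1.66, -1.89 and -1.73. The difference between the 2 subunits was not tested. Genes for the small subunit of the mitochondrial ribosome, named MRPS or RSM, lay elsewhere, with a median of 0.13. Of the 20 genes with these names, 2 fell, 1 rose and 17 did not pass. Over all genes, 18.1% fell and 14.5% rose.

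**Figure D2:**
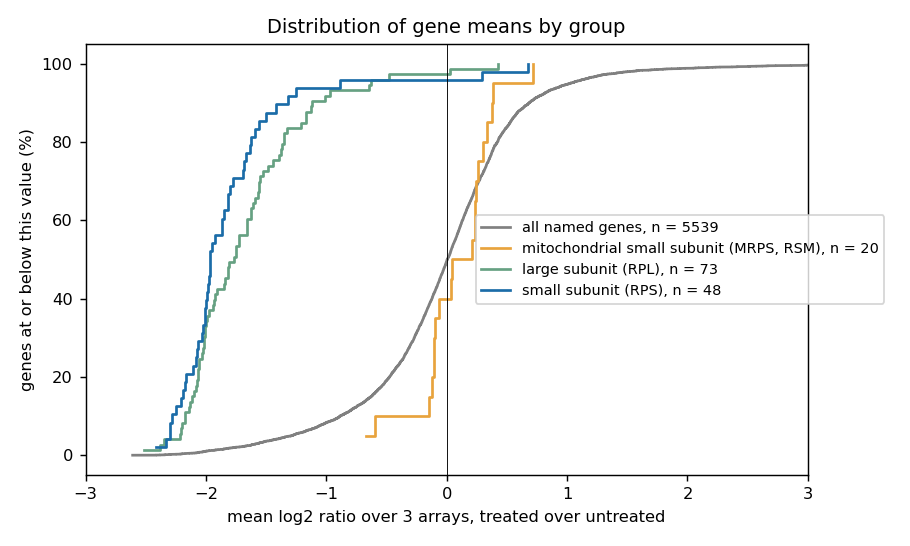
Cumulative share of genes (y axis, percent) at or below each mean log2 ratio over the 3 arrays (x axis) for all 5539 named genes and for 3 groups of ribosomal protein genes. The curves of the 48 small-subunit and 73 large-subunit genes lie close together with medians of -1.97 and -1.77, whereas that of the 20 mitochondrial small-subunit genes lies beside the curve of all genes.

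The gene that rose was RPS30A (locus tag YLR287C-A), which encodes eS30, a short basic protein of the 40S body. Its log2 ratios were 0.42, 0.72 and 0.88 on replicates 1, 2 and 3. All 3 arrays were above 0, and the mean of 0.67 ± 0.23 (SD, n = 3) is 1.59-fold higher than in untreated cells (limma adjusted p = 0.0130). The call was lost without replicate 1 (adjusted p = 0.0651) and when only the last spot of each gene was used (0.0593), with means of 0.80 and 0.56. The 2 spots of RPS30A gave 0.52 and 0.33 on replicate 1, 1.03 and 0.40 on replicate 2, and 0.82 and 0.94 on replicate 3. Both spots were thus above 0 on every array, although they differed most on replicate 2.

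The gene that did not pass was RPS19A (YOL121C), which encodes eS19, a head protein needed for maturation of the small-subunit rRNA and, in human, the protein most often mutated in Diamond-Blackfan anaemia. It had 0.44, 0.69 and -0.25 on replicates 1, 2 and 3, with a mean of 0.29 ± 0.49 (limma adjusted p = 0.306). Replicate 3 lay on the other side of 0 from the other arrays, and without it RPS19A rose (0.56, adjusted p = 0.0469). Its mean was 0.09 (adjusted p = 0.762) without replicate 2, 0.10 (0.775) with the last spot of each gene, 0.50 (0.115) with the first spot and 0.16 (0.581) with a dye effect in the fit, so its size depends on the array and the spot. Its 2 spots gave 0.51 and 0.37, 1.04 and 0.34, and -0.07 and -0.42 on the 3 arrays.

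RPS19A, RPS30A and RPS6B were the genes farther than 3 scaled median absolute deviations from the median of the small-subunit genes, that is, above -1.09. RPS6B, for eS6, which is phosphorylated downstream of TORC1, fell less than the others, with -0.71, -0.86 and -1.08 on the 3 arrays (mean -0.88 ± 0.19, adjusted p = 0.00213). RPS30B (-1.25 ± 0.40) was the next highest and lay inside that limit. RPS6B was inside it when replicate 2 or replicate 3 was left out. Without RPS19A and RPS30A, the standard deviation among the remaining 46 means was 0.31, compared with 0.57 with them.

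The largest falls came from genes for proteins of both the head and the body of the subunit. RPS0B, for uS2, a body protein needed late in small-subunit maturation, had -2.58, -2.37 and -2.29 on replicates 1, 2 and 3. Its mean of -2.41 ± 0.15 is 5.33-fold lower (adjusted p = 1.04e-06) and was, in this direction, the 3rd lowest on the whole array. The gene was low on every array, with replicate 3 the mildest.

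Next came RPS12, for eS12 at the beak of the head, with -2.02, -3.39 and -1.58 (mean -2.33 ± 0.94), the widest spread of the 48 genes. RPS18B, for uS13, which contacts the large subunit, had -2.46, -2.49 and -1.95 (mean -2.30 ± 0.30). RPS3, for uS3, which lines the mRNA entry channel, had -2.15, -2.70 and -2.04 (mean -2.30 ± 0.35). The mean of RPS12 leans on replicate 2, whereas the arrays of RPS18B and RPS3 lay within 1 log2 unit of each other.

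RPS0A, the partner of RPS0B, had -2.18, -2.51 and -2.14 (mean -2.28 ± 0.20). RPS25B, for eS25 of the head, a protein known for its part in internal initiation, had -2.30, -2.32 and -2.13 (mean -2.25 ± 0.10). RPS10A, for eS10 beside the mRNA entry, had -2.39, -2.10 and -2.13 (mean -2.21 ± 0.16). The arrays of these genes lay close together. RPS13, for uS15 of the body, which contacts the large subunit, had -2.24, -2.31 and -2.04 (mean -2.19 ± 0.14). These 8 lowest genes all fell in the test under each alternative except where replicate 3 was not turned.

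Of the 19 genes for head proteins, 18 fell, beside 18.1% of all genes, and the median was -2.03. Besides those above, RPS20, for uS10, a site of regulatory ubiquitylation on stalled ribosomes, had -2.17 ± 0.22, and RPS15, for uS19, whose tail reaches the decoding centre, had -2.08 ± 0.37. RPS10B, the partner of RPS10A, had -2.17 ± 0.27. RPS16A and RPS16B, for uS9, whose tail touches the initiator tRNA, had -2.03 ± 0.12 and -1.69 ± 0.15. RPS18A had -1.80 ± 0.22 and RPS25A -1.92 ± 0.36. RPS28A and RPS28B, for eS28 near the mRNA exit, had -1.95 ± 0.77 and -2.07 ± 0.44. RPS29A and RPS29B, for the zinc-binding protein uS14, had -2.01 ± 0.40 and -2.01 ± 0.69. The head genes other than RPS19A thus ran from -2.33 (RPS12) to -1.63 (RPS31).

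RPS31 encodes eS31 of the head fused to ubiquitin, which is cut off after translation, so that the gene supplies both proteins. It had -1.26, -2.38 and -1.24 (mean -1.63 ± 0.65, adjusted p = 0.000130) and was lower on replicate 2 than on the other arrays. UBI4, the polyubiquitin gene that carries no ribosomal protein, had -0.35, -1.04 and 0.03 (mean -0.45 ± 0.54, adjusted p = 0.128) and did not pass. The difference between the 2 ubiquitin genes was not tested.

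Of the 29 genes for body proteins, 28 fell and RPS30A rose, beside 18.1% of all genes that fell and 14.5% that rose. The median of the body genes was -1.85. RPS2, for uS5, a protein of translational accuracy at the mRNA entry, had -1.28, -1.44 and -1.54 (mean -1.42 ± 0.13), the smallest fall of the 7 measured single-copy genes. The single-copy genes had a median of -2.17, beside -1.95 for the 41 genes with an A or B name.

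Among the other body genes, RPS23A and RPS23B, for uS12 at the decoding centre, had -1.64 ± 0.15 and -2.00 ± 0.16. RPS9A and RPS9B, for uS4, also known for its part in accuracy, had -1.87 ± 0.16 and -1.32 ± 0.30. RPS1A and RPS1B, for eS1 at the mRNA exit, had -1.59 ± 0.11 and -1.82 ± 0.14, and RPS26A and RPS26B, for eS26 beside it, had -1.87 ± 0.40 and -1.97 ± 0.28. RPS14B, for uS11 of the platform, had -1.85 ± 0.08. Each of these genes was below 0 on all 3 arrays.

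RPS4A and RPS4B, for eS4, had -1.69 ± 0.24 and -1.67 ± 0.58, and RPS7A and RPS7B, for eS7, had -2.03 ± 0.31 and -1.98 ± 0.38. RPS21A and RPS21B, for eS21, which binds beside uS2, had -2.06 ± 0.29 and -1.50 ± 0.22. RPS22A and RPS22B, for uS8, had -1.97 ± 0.37 and -1.82 ± 0.82. RPS24A and RPS24B, for eS24, had -1.96 ± 0.08 and -1.99 ± 0.12, and RPS27A and RPS27B, for the zinc-binding protein eS27, had -1.78 ± 0.25 and -1.56 ± 0.21. RPS6A had -2.10 ± 0.01, the narrowest spread of the 48 genes.

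By conservation the groups overlapped widely. The 20 genes for proteins found in all domains of life (uS names) had a median of -2.00 and ran from -2.41 to -1.32, and all 20 fell. The 28 genes for proteins without a bacterial counterpart (eS names) had a median of -1.93 and ran from -2.33 to 0.67, and 26 of them fell. RPS19A, RPS30A, RPS6B and RPS30B, the 4 highest genes, are all of the latter group. Both counts stand beside 18.1% of all genes that fell. These medians and those of head and body are descriptions and were not tested.

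For 17 of 20 proteins with both copies measured, the difference between the A and the B copy did not pass the test. For each of these pairs the log2 ratio of B was subtracted from that of A on each array, which removes the offset of the array. These differences were fitted with limma over all 60 pairs on the array whose symbols differ only in a last A or B. Of the 20 pairs, 3 differed, beside 26.7% of all 60 and 9 of the 31 large-subunit pairs. The A copy was lower in 1 of the 3 and the B copy in 2, and over all 20 the A copy was lower in 9 and the B copy in 11. The difference had 1 sign on all 3 arrays in 7 of the 20 pairs, beside 30 of all 60 and 20 of the 31 large-subunit pairs. The median size of the difference was 0.22 within pairs, beside 0.31 between genes for different small-subunit proteins (over 1108 combinations), and these medians were not tested. In this fit every pair had the same standard error of 0.245, so an adjusted p does not reflect the spread of the pair itself, and with 3 arrays the smallest p of an exact sign test is 0.25.

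**Figure D3:**
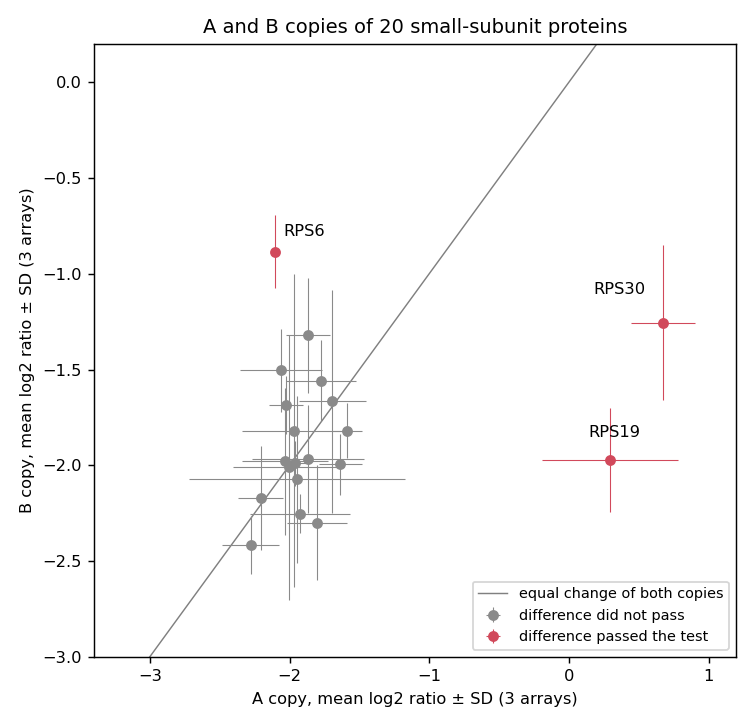
Mean log2 ratio of the A copy (x axis) against that of the B copy (y axis) for the 20 pairs, with bars of 1 SD over the 3 arrays. The line marks equal change. RPS19 and RPS30 lie far to the right of it, RPS6 above it, and the other 17 pairs near it.

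RPS19 had the largest difference, with the A copy higher by 2.47, 2.37 and 1.96 on replicates 1, 2 and 3. The mean of 2.27 ± 0.27 (95% interval 1.78 to 2.75, limma adjusted p = 2.97e-14) is 4.81-fold. RPS19B itself fell, with -2.03, -1.68 and -2.21 on the 3 arrays, close to the median of the small-subunit genes. The value of the A copy was thus above that of the B copy on every array, although the copies encode nearly identical proteins.

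RPS30 differed in the same direction, by 1.39, 2.43 and 1.96 (mean 1.93 ± 0.52, 95% interval 1.44 to 2.41, adjusted p = 3.44e-11). RPS30B fell, with -0.97, -1.71 and -1.08 (mean -1.25 ± 0.40), while RPS30A was above 0 on the same arrays. The copies thus had opposite signs on all 3 arrays. RPS19 and RPS30 were the pairs that differed in every alternative except where replicate 3 was not turned.

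In the other pair that differed, RPS6, both copies fell and the A copy fell more. Its differences were -1.39, -1.24 and -1.04 (mean -1.22 ± 0.18, 95% interval -1.70 to -0.74, adjusted p = 2.13e-05), with RPS6A near -2.10 on every array. The sign was thus the same on all 3 arrays. Without replicate 1 the adjusted p was 0.0809 (mean -1.14), so that 2 pairs passed in place of 3, while the share of all 60 pairs that differed went from 26.7% to 5%. The small-subunit share was thus below that of all pairs with 3 arrays and above it without replicate 1, and no difference between these shares was tested. RPS21 passed as well with the first spot of each gene, which made 4, and RPS18 and RPS21 passed without replicate 3, which made 5.

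The 17 other pairs differed by 0.56 or less, with a 95% interval of 0.48 to either side of each mean. RPS21 (-0.56) and RPS18 (0.50) had 1 array on the other side of 0. RPS9 had -1.06, -0.38 and -0.20 (mean -0.55 ± 0.45, adjusted p = 0.0861), and RPS23 had 0.36, 0.32 and 0.40 (0.36 ± 0.04, adjusted p = 0.262). RPS16 had -0.65, -0.11 and -0.26 (-0.34 ± 0.28, adjusted p = 0.271), and RPS1 had 0.41, 0.24 and 0.04 (0.23 ± 0.19, adjusted p = 0.5004). These 4 were among the 7 pairs with 1 sign on all arrays, and they did not pass. At the other end stood RPS29, with a mean difference of 0.0047 and an interval from -0.48 to 0.49, and RPS24, with 0.03 and an interval from -0.46 to 0.51. Such intervals leave room for differences of up to about 0.5 in RPS29 and RPS24. Those of RPS21 (-1.05 to -0.08), RPS9 (-1.03 to -0.06) and RPS18 (0.01 to 0.98) reached farther and left out 0, although these pairs did not pass after adjustment.

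**Figure D4:**
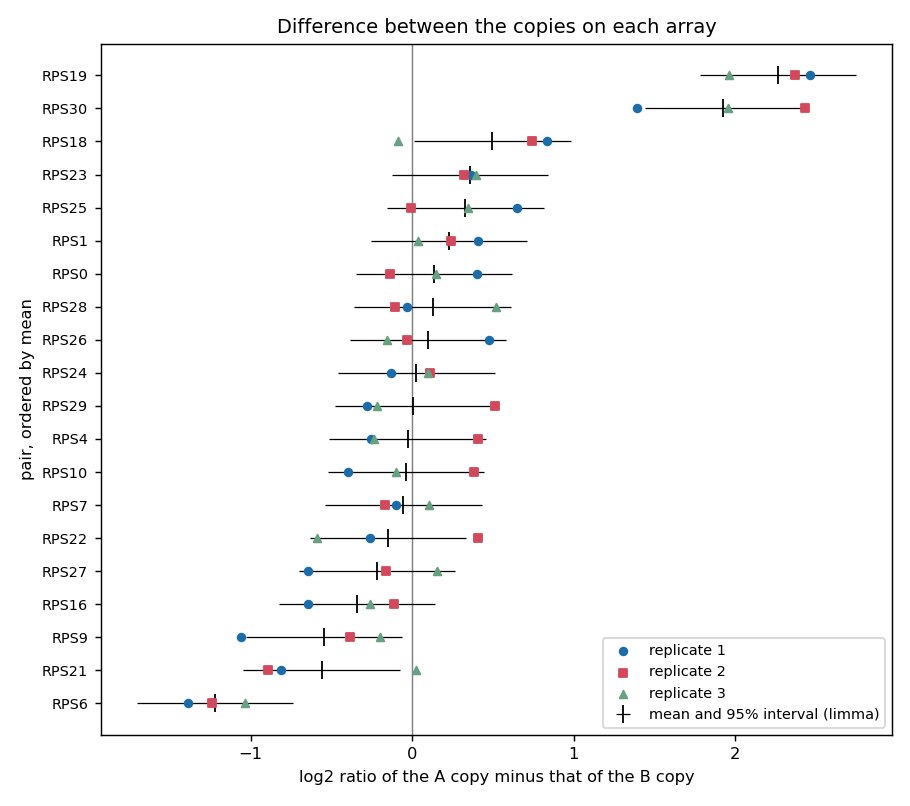
Log2 ratio of the A copy minus that of the B copy (x axis) for each of the 20 pairs (y axis, ordered by mean). Coloured points are the 3 arrays and black bars the mean with its 95% interval from limma. RPS19 and RPS30 lie to the right of 0 on every array, and RPS6 lies to the left.

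The arrays differed in how widely the genes were spread. The standard deviation among the 48 genes was 0.63, 0.72 and 0.54 on replicates 1, 2 and 3. The SD of a gene over the arrays had a median of 0.25 for these genes and 0.28 for all genes. It was above 0.5 for 6 genes, RPS12, RPS22B, RPS28A, RPS29B, RPS31 and RPS4B, and in all 6 replicate 2 was the lowest array. Over all members, replicate 2 was the lowest array for 25 of 48, beside 39.4% of all genes. RPS22B, for example, had -1.35, -2.76 and -1.34. Between duplicate spots of these genes, the pooled SD was 0.12, 0.19 and 0.12 on replicates 1, 2 and 3, beside the median SD of 0.25 over the arrays. The gap between duplicates had a median of 0.11 and was at most 0.80 (RPS23B on replicate 2).

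The order of the genes repeated in part. Across the 48 genes, Pearson's r between replicate 1 and replicates 2 and 3 was 0.751 and 0.816, and between replicates 2 and 3 it was 0.631. Without RPS19A and RPS30A these values were 0.425, 0.605 and 0.054 over 46 genes. The A minus B differences of the 18 pairs other than RPS19 and RPS30 gave 0.648, 0.561 and 0.278. Genes are not independent replicates, and the paired copies may share hybridisation, so these values are descriptions.

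Among other genes of the pathway, ASC1, the yeast RACK1 homolog and a 40S protein outside the RPS naming scheme, fell too. It had -1.65, -1.89 and -1.60 (mean -1.71 ± 0.15, limma adjusted p = 1.18e-05). Of 4 genes for partners of a single small-subunit protein, 3 fell and 1 did not pass, beside 18.1% of all genes that fell. YAR1, which escorts Rps3, had -0.88 ± 0.27, TSR2, which escorts Rps26, had -0.74 ± 0.49, and TSR4, which escorts Rps2, had -0.61 ± 0.29. FAP7, which acts with Rps14, had 0.05 ± 0.19 (adjusted p = 0.863).

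Of 11 regulators of ribosomal protein or ribosome biogenesis genes, 5 fell, 0 rose and 6 did not pass. Of all genes, 18.1% fell and 14.5% rose. The transcription factor genes RAP1 (-0.87 ± 0.34, adjusted p = 0.00344), FHL1 (-0.63 ± 0.42, 0.0296) and IFH1 (-0.89 ± 0.49, 0.00529) were among those that fell. So were TOD6, for a repressor of ribosome biogenesis genes (-0.85 ± 0.46, adjusted p = 0.00627), and ABF1 (-0.57 ± 0.41, adjusted p = 0.0449), for a general regulatory factor. SFP1, for the activator, had -0.05 ± 0.11, SCH9, for a kinase target of TORC1, 0.03 ± 0.39, CRF1, for the corepressor, 0.35 ± 0.40, and HMO1, for a high mobility group protein of these promoters, 0.21 ± 0.35. STB3 and DOT6, for repressors of ribosome-related genes, had -0.05 ± 0.30 and -0.36 ± 0.08. These are levels of the regulators' transcripts, and the activity of the proteins was not measured.

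Several small-subunit genes lie beside another ribosomal protein gene in the reference annotation, and those measured fell on both sides. RPS16A is divergent from RPL13B (-1.75 ± 0.06) and RPS16B from RPL13A (-1.32 ± 0.08), RPS22A from RPL39 (-1.61 ± 0.41), and RPS15 from RPP2A, for an acidic stalk protein (-2.03 ± 0.66). RPS22A is also next to RPS14B. RPS19B adjoins RPL18B (-2.01 ± 0.12), and RPS9B adjoins RPL21A (-1.35 ± 0.26). The measured neighbour of RPS19A is SMF1, for a metal ion transporter (0.03 ± 0.06), and those of RPS30A are MEC3 (0.40 ± 0.57) and YLR287C (-0.03 ± 0.46), of which none passed the test.

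Of 75 measured neighbours that encode no cytosolic ribosomal protein, 24 fell (32%) and 4 rose, with a median of -0.19. Genes for mitochondrial ribosomal proteins, such as RSM27 beside RPS0A and MRPL22 beside RPS3, were kept among the 75. Among the 23 that are divergent from a small-subunit gene, and so face it across a shared intergenic region, 10 fell and 2 rose, with a median of -0.30. TSR1, for a 40S maturation factor, beside RPS29B (-1.61 ± 0.65), NTC20, for a splicing factor, beside RPS9B (-1.59 ± 0.53), and RKI1, for ribose-5-phosphate isomerase, beside RPS7A (-1.43 ± 0.07) were among these. REH1, for a cytoplasmic 60S maturation factor, beside RPS29A, was 1 of the 2 that rose (1.31 ± 0.06). The neighbours named here were picked after their values were seen. These shares stand beside 18.1% of all genes that fell and 14.5% that rose, and the difference was not tested.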

How the data were processed

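The deposited table holds 1 log ratio of the 2 channels, read here as log2, for each of 13056 spots on each of 3 arrays, made by the authors, with 0 missing values. The scanner, background correction, normalization, base of the logarithm and sign convention are not stated in these sources, and the number of arrays limits the precision. The platform annotation supplied with the series gave 1 gene symbol to 11138 spots. The other 1918 spots, with no symbol or with several, were not assigned to a gene. All 48 small-subunit symbols described matched the RefSeq table of assembly R64 by gene ID, which was used for names and neighbours only, since the files name no build.

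Spots were averaged per gene and array, replicate 3 was multiplied by -1, and each array was centred on its median over 5539 genes. Means over arrays were compared with 0 by limma 3.58.1 (lmFit, eBayes; R 4.3.3), two-sided, with Benjamini-Hochberg adjustment over all genes and a threshold of 0.05. The prior degrees of freedom were 10.8, beside 2 residual ones, so the error of a gene follows the pooled spread more than its own. RPS12 (SD 0.94) and RPS6A (SD 0.013) had standard errors of 0.279 and 0.176 in this fit. A minus B differences were fitted likewise over 60 pairs, 23 of them small-subunit, 31 large-subunit and 6 others, with infinite prior degrees of freedom. Tables and figures used Python 3.11.15, pandas 2.3.3 and matplotlib 3.10.9.

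The members, lists, protein groups and alternatives were chosen with earlier results of these data known. Of the 54 genes that the naming rule gives, 6 are not reported here, and the counts and medians of small-subunit genes and pairs leave them out, whereas both fits and all adjusted p-values include them. Every other member is named. Values on each array are given for members that did not fall, members over 3 scaled median absolute deviations from the members' median, the 8 lowest, and the 7 pairs whose difference had 1 sign. RPS2, RPS22B, RPS31, RPS19B, RPS30B and the spots of RPS19A and RPS30A were added after their values were seen. Alternatives were the deposited offsets, scaling, centring on other genes, single spots, a dye effect, leaving out each array, an unturned replicate 3 and a natural logarithm. Promoter motifs, introns and sequences were not analysed here.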

Additional observations from a re-analysis of the deposited data

How the results depend on the processing

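Of 11 alternatives, all but the unturned replicate 3 gave 46 small-subunit genes that fell. With replicate 3 not turned, 0 fell, 0 rose and 0 pairs differed (limma, also 0 genes and 0 pairs at an unadjusted p under 0.05), 0 genes passed on the whole array, and the median was -0.69, since a value of opposite sign on 1 array widens the spread. The number that rose was 0 with the last spot of each gene, and from 0 to 2 with an array left out. The median ran from -1.96 to -1.84 with an array left out, was -1.87 without centring, when all genes had 0.10, and was -2.83 for a natural logarithm. Pairs that differed numbered 2 to 5 with an array left out and 4 with the first spot. The share of all genes that fell was 10.9% without replicate 1 and without centring, beside 18.1%, and that of all pairs that differed was 5% without replicate 1, beside 26.7%. Calls were also followed for 18 single genes and pairs: the 8 lowest genes, RPS6B, RPS19A, RPS30A and the 7 pairs with 1 sign on all arrays. They were picked from these same values, so the count does not describe members at large. RPS18 and RPS21, whose calls changed in some alternatives, are not among them. Over these 18 and the 10 alternatives other than the unturned replicate 3, 176 of 180 calls were the same, 4 changed and 0 turned direction. Those 4, with RPS30A lost in 2 alternatives, RPS19A gained in 1 and RPS6 lost without replicate 1, are given with their values in the report. Each array is a direct ratio, so treated and untreated RNA are already paired within it. The arrays form 1 group, and no further pairing between them was made. Signal over background is unknown, so no limit from low signal can be set for any gene.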
